A study of Mus musculus with 6 samples.

Results

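The genes described here are transcription factors that steer blood progenitors towards red cells and platelets: Gata1, Gata2, Gfi1b, Klf1 and Myb, with Zfpm1 (FOG1) named beside them. They were chosen by name, and all probes annotated to them were taken from the authors' normalized table. That gave 7 of the 46632 probes on the array, for 5 of the 6 genes listed and out of 17711 genes with a probe. Zfpm1 was not analysed here. Of the 7 probes, 5 lay above background on all 6 arrays, 1 for each of the 5 genes. The other 2, both of Myb, lay above background on none.

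RNA came from sorted megakaryocyte progenitors, the bone marrow precursors of platelet-forming cells, of mice of 3 to 4 months on a mixed 129SVxC57Bl/6 background. One group was TGPF4-CRE;SCL fl/fl, with floxed alleles of Scl (gene symbol Tal1) that the design describes as completely excised, and the other was TGPF4-CRE;SCL wt/wt. They are called Scl fl/fl and Scl +/+ below, each with 3 Illumina bead arrays. Both groups carried the Cre transgene, whose Pf4 promoter is active in the megakaryocyte lineage. Nothing in the labels tells if the 3 samples of a genotype were 3 animals, 3 pools or repeats of one, so a p-value here reflects only how far these samples spread, part of which may be technical.

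GATA1 and GATA2 are zinc finger proteins that bind the same short DNA motif. GATA2 acts in stem and early progenitor cells. As erythroid cells and megakaryocytes mature, GATA1 takes over many of its sites and represses the Gata2 gene itself, an exchange known as the GATA switch. GATA1 works with the cofactor FOG1 and within a complex that contains SCL, LMO2 and LDB1. GFI1B is a repressor that recruits the demethylase LSD1, KLF1 is an activator of red cell genes, and MYB maintains the proliferation of progenitors.

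The 300 bases around the annotated starts of the members were taken from RefSeq (build GRCm38.p6, 250 bases before and 50 after the start) and searched for the GATA motifs AGATAA and TGATAA and for the E-boxes CAGATG and CAGCTG, the kind of site bound by SCL, on both strands. None of these motifs overlapped another. Of the 4 windows below, those of Gata2 are shown because it was the member that passed the test of levels. Klf1 and Gfi1b are shown because they were the only members whose window held a GATA motif of these letters. Capitals mark the motifs found.
Gata2, chr6:88193641-88193940, plus strand: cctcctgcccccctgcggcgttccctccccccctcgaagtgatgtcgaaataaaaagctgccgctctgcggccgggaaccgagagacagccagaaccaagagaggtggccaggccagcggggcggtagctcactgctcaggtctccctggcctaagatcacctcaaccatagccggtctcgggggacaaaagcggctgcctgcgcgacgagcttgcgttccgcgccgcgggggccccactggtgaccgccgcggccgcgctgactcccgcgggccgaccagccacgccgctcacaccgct
Gata2, chr6:88198414-88198713, plus strand: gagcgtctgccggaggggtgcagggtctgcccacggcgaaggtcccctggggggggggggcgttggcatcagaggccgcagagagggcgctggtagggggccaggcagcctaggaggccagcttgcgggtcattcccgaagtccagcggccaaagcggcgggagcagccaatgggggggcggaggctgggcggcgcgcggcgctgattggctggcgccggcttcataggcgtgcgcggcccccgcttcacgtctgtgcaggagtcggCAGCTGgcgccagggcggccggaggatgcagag
Klf1, chr8:84901732-84902031, plus strand: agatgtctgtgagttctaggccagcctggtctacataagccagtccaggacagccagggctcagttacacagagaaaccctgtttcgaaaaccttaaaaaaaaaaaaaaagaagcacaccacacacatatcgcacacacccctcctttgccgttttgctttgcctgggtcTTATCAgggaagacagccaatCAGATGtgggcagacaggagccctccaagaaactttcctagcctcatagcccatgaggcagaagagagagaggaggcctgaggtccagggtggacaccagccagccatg
Gfi1b, chr2:28621933-28622232, minus strand: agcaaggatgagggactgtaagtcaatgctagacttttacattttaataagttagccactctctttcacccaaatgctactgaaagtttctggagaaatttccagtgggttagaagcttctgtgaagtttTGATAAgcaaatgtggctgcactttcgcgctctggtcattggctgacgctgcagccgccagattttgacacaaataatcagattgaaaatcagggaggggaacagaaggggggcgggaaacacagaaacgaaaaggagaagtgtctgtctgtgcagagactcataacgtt
The first Gata2 window held none of the 4 motifs, and the second held CAGCTG from base 18 to base 23 after the start. Klf1 had TGATAA, read on the opposite strand as TTATCA, 80 to 75 bases before the start and CAGATG 59 to 54 bases before it. Gfi1b had TGATAA 120 to 115 bases before its start. TGATAA occurs in 9.05% of all 32851 windows in the table, AGATAA in 11.2%, CAGATG in 17.2% and CAGCTG in 16.3%. Of the 7 windows of the 6 listed genes, 2 held a GATA motif of these letters and 3 held none of the 4 motifs. A match is a description of the letters only, and no factor binding was measured on these arrays.

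Levels are given on the authors' normalized log2 scale, on which a difference of 1 is a doubling and a probe needed between 6.69 and 6.76 to count as detected, depending on the array. Probes differ in how brightly they hybridise, so levels are compared between arrays and not between genes. Between 15183 and 16338 probes per array were detected, and 16122 that were detected on at least 3 arrays entered the test, which was limma with Benjamini-Hochberg adjustment over all of them. In total 99 probes passed an adjusted p of 0.05, which is 0.614% of those tested. Of these, 71 were higher in Scl fl/fl cells (0.44% of those tested) and 28 were lower (0.174%). The Tal1 probe read 11.21, 9.85 and 11.45 on Scl fl/fl arrays 1, 2 and 3, against 12.82, 13.27 and 13.29 on Scl +/+ arrays 1, 2 and 3 (limma adjusted p = 0.0399). The position of that probe relative to the floxed exons was not known here. Without Scl +/+ array 3, 1618 probes passed, against 11 to 41 when any other array was left out, and Scl fl/fl array 2 had the lowest mean correlation with the other arrays (0.979, against 0.983 to 0.986 for the other 5). Arrays also differed in Xist, the transcript that silences one X chromosome in female cells, at 6.66, 6.95 and 10.55 on Scl fl/fl arrays 1, 2 and 3, against 10.55, 10.90 and 9.25 on Scl +/+ arrays 1, 2 and 3. Eif2s3y, a Y chromosome gene, was detected on all 6. It read 8.67, 8.39 and 7.97 on Scl fl/fl arrays 1, 2 and 3, against 7.37, 7.64 and 8.22 on the Scl +/+ arrays. It was thus highest on the 2 arrays where Xist was lowest. The part of these array differences in the results below was not tested beyond the fits without each array and with the Xist level as a covariate.

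Gata2 was the 1 member of the 5 tested that passed the test, where 0.614% of all tested probes passed. It was higher in Scl fl/fl cells. Its probe (ILMN_2612283) read 13.38, 13.52 and 13.32 on Scl fl/fl arrays 1, 2 and 3, against 12.82, 12.72 and 12.73 on Scl +/+ arrays 1, 2 and 3. Every Scl fl/fl array lay above every Scl +/+ array, with a gap of 0.49 between the lowest Scl fl/fl and the highest Scl +/+ value. The means were 13.40 ± 0.10 in Scl fl/fl cells and 12.76 ± 0.06 in Scl +/+ cells (SD, n = 3 each), a log2 difference of 0.65 ± 0.10 (SE; 95% confidence interval 0.43 to 0.87), or 1.57-fold (limma adjusted p = 0.0320). In the ranking of all 16122 probes by p, the Gata2 probe stood at place 50.

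The Gata2 difference kept its direction under all 15 alternatives, from 0.59 to 0.71 on the log2 scale. With no filter, a stricter filter, 1 probe a gene, a trend and robust prior or a replicate block, the estimate could not change. Those alternatives bear on the p alone. Leaving out an array or weighting the arrays could not turn the sign either, because the groups did not overlap. The direction could have turned only with neqc, median scaling or the Xist level as a covariate. The Gata2 groups did not overlap with neqc background correction (gap 0.49) or with median scaling (gap 0.26) either. The call did not hold as widely. The adjusted p was 0.0868 with neqc, 0.319 with median scaling and 0.358 with the Xist level as a covariate. It was 0.0888, 0.0968 and 0.0662 without Scl fl/fl array 1, 2 or 3, and 0.113 and 0.186 without Scl +/+ array 1 or 2. Without Scl +/+ array 3 it was 0.0115, and in all the call held in 6 of the 15.

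**Figure D1:**
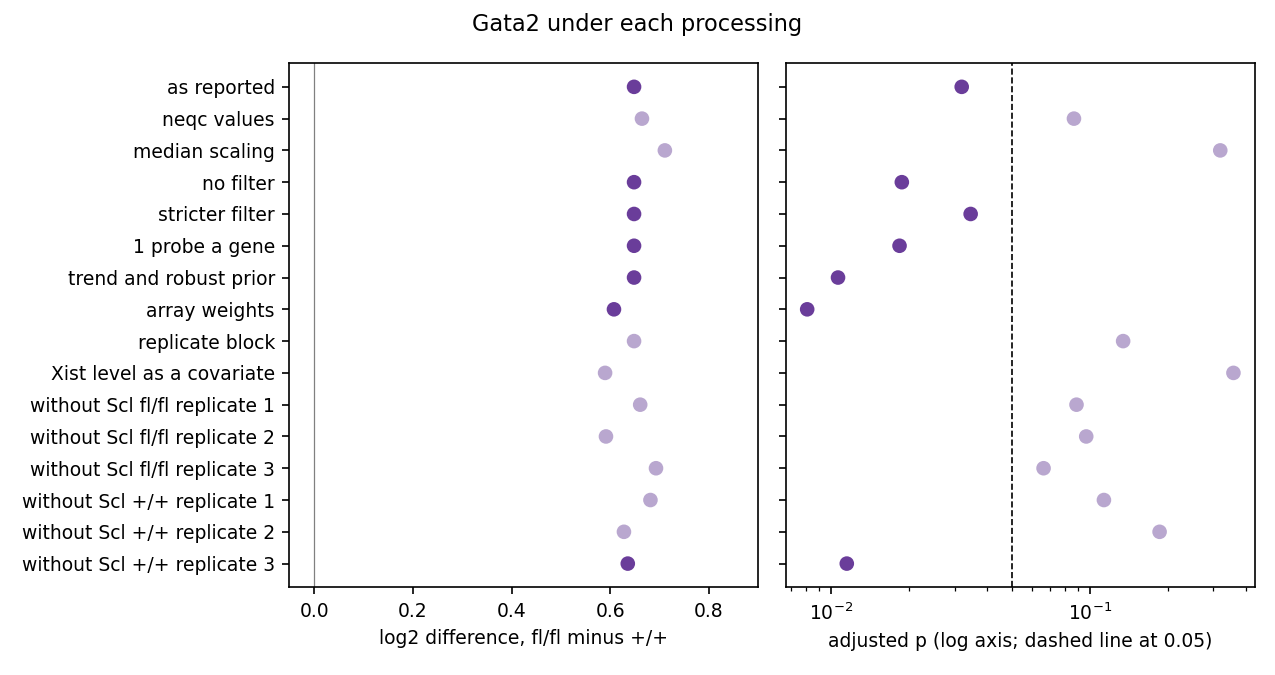
Gata2 under the reported processing and 15 alternatives: the log2 difference, Scl fl/fl minus Scl +/+ (left), and the limma adjusted p on a log axis with the threshold of 0.05 dashed (right). Dark points passed the threshold. The difference stays between 0.59 and 0.71 in every row, while the adjusted p runs from 0.00809 to 0.358.

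Gata1 did not pass the test, and its levels varied as much within a genotype as between genotypes. Its probe (ILMN_1237279) read 8.64, 9.36 and 9.01 on Scl fl/fl arrays 1, 2 and 3, against 8.60, 8.56 and 9.15 on Scl +/+ arrays 1, 2 and 3. The groups overlapped: Scl fl/fl array 1 sat with Scl +/+ arrays 1 and 2 at the low end, and Scl +/+ array 3 lay second only to Scl fl/fl array 2. The means were 9.003 ± 0.357 in Scl fl/fl cells and 8.768 ± 0.330 in Scl +/+ cells (SD, n = 3 each). The log2 difference was 0.23 with a 95% confidence interval of -0.24 to 0.71 (limma adjusted p = 0.638), so these arrays exclude neither no change nor a rise of the size seen for Gata2. The difference depended on single arrays, at 0.43 without Scl +/+ array 3, 0.41 without Scl fl/fl array 1 and 0.06 without Scl fl/fl array 2, with a lowest adjusted p of 0.174 over the alternatives. Gata1 lies on the X chromosome, and with the Xist level as a covariate its difference was 0.15 (limma adjusted p = 0.909).

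**Figure D2:**
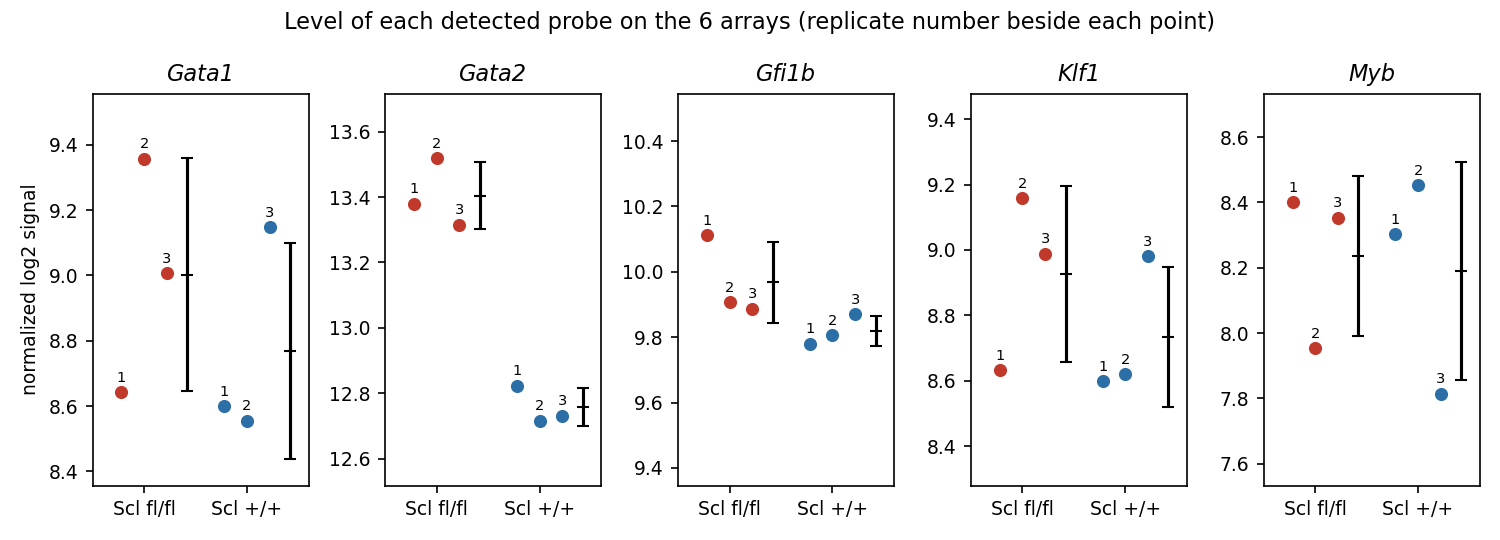
Normalized log2 signal of the 5 detected probes on each array, with Scl fl/fl left of Scl +/+, replicate numbers above the points, and the mean with SD beside them (n = 3 each). All panels span 1.2 log2 units. The Gata2 groups are set apart by 0.49, those of Gfi1b by 0.02, and the groups of Gata1, Klf1 and Myb overlap.

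The balance of Gata1 against Gata2 was taken on each array as the log2 signal of the Gata1 probe minus that of the Gata2 probe. Its absolute value sets 2 probes against each other and has no meaning, but its difference between arrays does not depend on that. It was -4.74, -4.16 and -4.31 on Scl fl/fl arrays 1, 2 and 3, against -4.22, -4.16 and -3.58 on Scl +/+ arrays 1, 2 and 3. The groups overlapped, and the lowest and the highest arrays were Scl fl/fl array 1 and Scl +/+ array 3. The balance averaged -4.40 ± 0.30 in Scl fl/fl cells and -3.99 ± 0.35 in Scl +/+ cells (SD, n = 3 each). The difference was -0.41, that is 1.33-fold towards Gata2 in Scl fl/fl cells. Its two-sided exact permutation p was 0.2, in a design of 3 arrays against 3 that can give none below 0.1 and so cannot reach 0.05. With median scaling the difference was again -0.41 but the groups did not overlap, the highest Scl fl/fl array lying at -4.21 and the lowest Scl +/+ array at -4.17, and the exact permutation p was 0.1, the smallest possible. With neqc they overlapped, the difference was -0.39 and the exact permutation p was 0.4. The difference was -0.21 without Scl +/+ array 3 and -0.25 without Scl fl/fl array 1 (exact permutation p = 0.6 and 0.5). In Scl fl/fl array 2, where Gata1 and Gata2 were both at their highest, the balance was within 0.01 of that in Scl +/+ array 2, where Gata1 and Gata2 were both at their lowest.

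**Figure D3:**
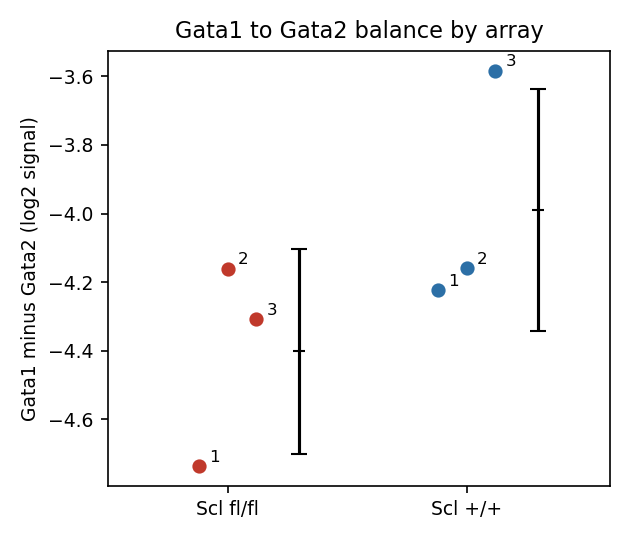
Gata1 minus Gata2 in log2 signal on each array, with Scl fl/fl left of Scl +/+, replicate numbers beside the points and the mean with SD (n = 3 each). The group means are -4.40 and -3.99, and Scl fl/fl array 2 lies within the range of the Scl +/+ arrays.

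Gfi1b was slightly higher on the Scl fl/fl arrays and did not pass. Its probe (ILMN_2772930) read 10.11, 9.91 and 9.89 on Scl fl/fl arrays 1, 2 and 3, against 9.78, 9.81 and 9.87 on Scl +/+ arrays 1, 2 and 3. The groups did not overlap, by a margin of 0.02, and with median scaling they did overlap. The log2 difference was 0.15 (95% confidence interval -0.07 to 0.37, limma adjusted p = 0.503), and it was 0.08 without Scl fl/fl array 1 and 0.07 with the Xist level as a covariate. Groups that do not overlap were common: they were found for 18% of all tested probes, and for 2 of the 5 member probes (Gata2 and Gfi1b).

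Klf1 resembled Gata1. Its probe (ILMN_2665087) read 8.63, 9.16 and 8.99 on Scl fl/fl arrays 1, 2 and 3, against 8.60, 8.62 and 8.98 on Scl +/+ arrays 1, 2 and 3. The groups overlapped, with low values on Scl fl/fl array 1 and on Scl +/+ arrays 1 and 2. The log2 difference was 0.19 (95% confidence interval -0.17 to 0.55, limma adjusted p = 0.606), and it ranged from 0.08 without Scl fl/fl array 2 to 0.34 without Scl fl/fl array 1.

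Myb did not differ between the genotypes by more than the spread within them. Its detected probe (ILMN_1219713) read 8.40, 7.95 and 8.35 on Scl fl/fl arrays 1, 2 and 3, against 8.30, 8.45 and 7.81 on Scl +/+ arrays 1, 2 and 3. The lowest values of both groups, on Scl fl/fl array 2 and Scl +/+ array 3, came from the arrays with the highest Gata1. The log2 difference was 0.05 (95% confidence interval -0.37 to 0.46, limma adjusted p = 0.936), and its sign turned when array 1 or 3 of Scl fl/fl or array 3 of Scl +/+ was left out and with array weights. This probe is annotated to a cDNA clone. The other 2 Myb probes (ILMN_2683910 and ILMN_2752817), annotated to the RefSeq transcript, were not well above background on any array, so the detected signal rests on 1 of 3 probes.

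Across the 6 arrays the members fell into different patterns. Gata1 and Klf1 moved together: with each probe centred on its own mean, their root mean square difference over the 6 arrays was 0.09, and only 6 of the 7796 named genes detected on all arrays lay closer to Gata1 than Klf1 did. The 3 closest to Gata1 were Gamt, an enzyme of creatine synthesis (0.06), Adgre5, an adhesion receptor also called CD97 (0.06), and Proser2 (0.07). The 3 closest to Klf1 were Use1 (0.04), Tbc1d2b (0.04) and Asb16 (0.05). Myb ran the other way and ranked 7392 of 7796 by its distance from Gata1 (0.52). Its closest genes were Pnisr (0.05), Rhobtb3 (0.05) and Kdm3a, a histone demethylase gene (0.07). They were likewise lowest on Scl fl/fl array 2 and Scl +/+ array 3, which follows from choosing them by this pattern.

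Gata2 followed the genotype and not the Gata1 pattern, from which it differed by 0.34. Its closest genes were Chchd10, a mitochondrial protein gene (0.06), Ank3, a membrane skeleton adaptor gene (0.06), and Usp20, a ubiquitin protease gene (0.06), with log2 differences of 0.59, 0.67 and 0.64 between the genotypes. Those closest to Gfi1b were Ptpn22, a tyrosine phosphatase gene (0.03), Il1rl2 (0.04) and Kifbp (0.04). The closest genes were picked by their values on these same 6 arrays, so differences between the genotypes near those of the member follow from the choice. These likenesses rest on 6 arrays that share one normalization, and are given as a description.

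**Figure D4:**
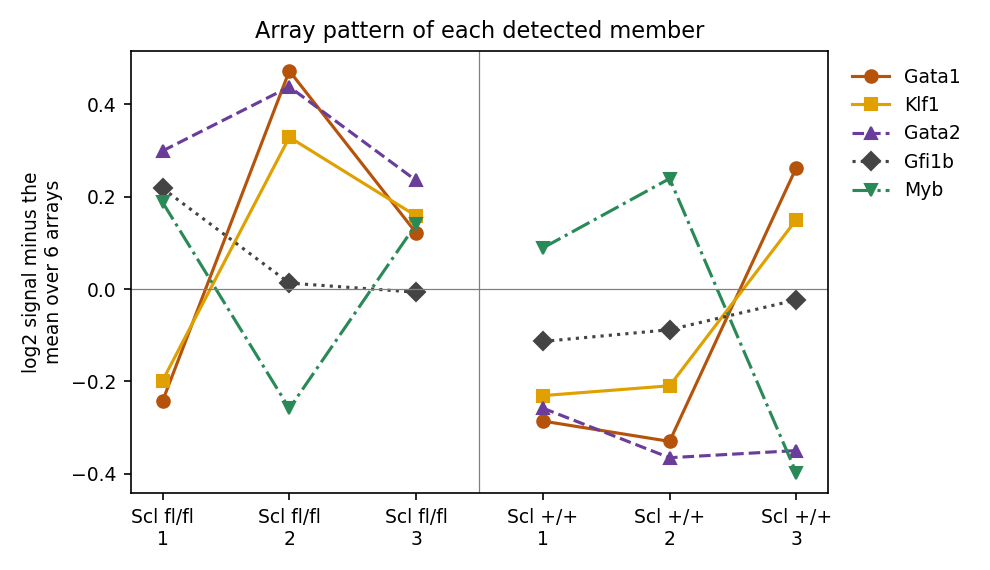
Log2 signal of each detected member minus its own mean over the 6 arrays, with Scl fl/fl arrays left of Scl +/+ arrays. Lines join the points of 1 gene for reading only, since replicates have no order. Gata1 and Klf1 are high on Scl fl/fl array 2 and Scl +/+ array 3, where Myb is low, and Gata2 lies above 0 on all Scl fl/fl arrays and below 0 on all Scl +/+ arrays.

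Erythroid signals were read beside Gata1 and Klf1. Of 13 tested erythroid genes that GATA1 or KLF1 activates, none passed the limma test, 7 were higher and 6 lower in Scl fl/fl cells, and the median log2 difference was 0.00057, against 0.02 over all 8946 genes (1 probe each, the brightest). Hbb-bt, a beta globin gene, read 9.58, 11.33 and 9.63 on Scl fl/fl arrays 1, 2 and 3, against 9.03, 8.85 and 9.09 on Scl +/+ arrays 1, 2 and 3. Hba-a1, an alpha globin gene, read 9.09, 10.77 and 8.98 on the Scl fl/fl arrays, against 8.51, 8.19 and 8.75 on the Scl +/+ arrays. Both globins were highest on Scl fl/fl array 2, the array with the highest Gata1 and Klf1, but they were not raised to that degree on Scl +/+ array 3, where Gata1 and Klf1 were also high. Their adjusted p values were 0.234 and 0.262. Hba-a1 was named after its values were seen. Bcl11a, which encodes a transcriptional repressor, had the smallest p of the list, with a log2 difference of -0.43 (adjusted p = 0.122). The summed linear signal of the list was 10002 to 12768 in Scl fl/fl cells and 9081 to 10439 in Scl +/+ cells, and Epb42, Dmtn, Trim10 and Rhd, genes of red cell membrane proteins or late erythroid cells, were detected on no array. Many more genes passed in 2 of the alternatives, at 6.11% of all genes higher and 4.01% lower in Scl fl/fl cells without Scl +/+ array 3, and 6.47% higher and 4.27% lower with array weights, so the counts of a list under both are given beside it where they differ from those reported. Of the erythroid genes, none passed without Scl +/+ array 3 and 1 was called lower with array weights. In bulk RNA, fewer cells of a type and less RNA per cell cannot be told apart.

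Among megakaryocyte genes that GATA1 and FOG1 activate, 1 of 15 tested fell and none rose, with 5 higher and 10 lower means in Scl fl/fl cells and a median log2 difference of -0.07. Without Scl +/+ array 3, 2 were called higher and 2 lower, and with array weights 2 higher and 4 lower. The gene that fell was Selp, the alpha granule adhesion protein P-selectin, at 7.91, 7.82 and 8.05 on Scl fl/fl arrays 1, 2 and 3, against 9.01, 9.53 and 9.24 on Scl +/+ arrays 1, 2 and 3 (log2 difference -1.34, limma adjusted p = 0.00807). Its call was lost without Scl fl/fl array 1 and in 3 other alternatives, with adjusted p up to 0.183. Vwf, which encodes von Willebrand factor, and F2rl2, a thrombin receptor gene, had log2 differences of -0.45 (adjusted p = 0.104) and -0.76 (adjusted p = 0.121), and neither passed. Among the 5 with a higher mean, Gp1bb, a subunit gene of the von Willebrand factor receptor, had a log2 difference of 0.60 (adjusted p = 0.244). Itga2b, the integrin gene also called CD41, read 12.27, 12.28 and 11.82 on Scl fl/fl arrays 1, 2 and 3, against 10.31, 10.38 and 12.36 on Scl +/+ arrays 1, 2 and 3. Its groups overlapped through Scl +/+ array 3 alone, which was the highest of the 6 (log2 difference 1.11, adjusted p = 0.317). Itga2b was named after its values were seen. Over all genes 0.559% were called higher and 0.235% lower in Scl fl/fl cells.

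The genes that GATA1 represses or GATA2 activates did not move one way. Of 12 tested, Lyl1 rose, 8 had a lower mean and the median log2 difference was -0.10. In this list 2 were called higher and 1 lower without Scl +/+ array 3, and 2 higher and 2 lower with array weights. Lyl1, the closest relative of Tal1, read 10.13, 10.34 and 10.01 on Scl fl/fl arrays 1, 2 and 3, against 9.30, 9.15 and 9.58 on Scl +/+ arrays 1, 2 and 3 (limma adjusted p = 0.0456). Ikzf1, a lymphoid and progenitor factor gene, and Cd34, a progenitor surface gene, had log2 differences of 0.59 (adjusted p = 0.0971) and -0.53 (adjusted p = 0.146), and neither passed. Among 11 tested partners and coactivators of the SCL and GATA complex, Tal1 fell, Lyl1 rose and 9 did not pass, with Ssbp3, an LDB1-binding protein gene, at 0.55 (adjusted p = 0.206) and Cbfa2t3, the corepressor ETO2, at -0.64 (adjusted p = 0.374). In that list 2 were called higher and 1 lower both without Scl +/+ array 3 and with array weights. The calls of Tal1 and Lyl1 each held in 5 of 15 alternatives, with adjusted p up to 0.432. Both calls were lost without Scl fl/fl array 1 or 3 or Scl +/+ array 1 or 2, and that of Lyl1 also without Scl fl/fl array 2.

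Cofactors that FOG1 and GFI1B recruit held 2 genes that rose. FOG1 binds the NuRD repressor complex, of which Mta3 encodes a subunit. Mta3 read 11.21, 11.33 and 10.99 on Scl fl/fl arrays 1, 2 and 3, against 9.95, 10.05 and 10.11 on Scl +/+ arrays 1, 2 and 3. The groups did not overlap, the log2 difference was 1.14, or 2.20-fold, and the limma adjusted p was 0.00712. Without Scl +/+ array 2, and in 3 other alternatives, the call was lost, with adjusted p up to 0.132. The other 12 tested genes of the NuRD and CtBP list did not pass, and its median log2 difference was 0.03. Without Scl +/+ array 3, 6 of the 13 passed, 5 of them higher and 1 lower in Scl fl/fl cells, and with array weights the counts were the same. The related subunit gene Mta2 was close to the threshold at 0.56 (adjusted p = 0.0546), and Rbbp4, a histone-binding subunit gene, was at 0.39 (adjusted p = 0.126). The summed signal of that list was 13140 to 14009 in Scl fl/fl cells and 10456 to 11640 in Scl +/+ cells. Chd4 (log2 difference 0.58), Mta3 and Mta2, the brightest of the list on the Scl fl/fl arrays, weighed most in that sum. By gene, 7 means were higher and 6 lower in Scl fl/fl cells, with Rbbp7 at -0.85 (limma adjusted p = 0.200).

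GFI1B acts through LSD1 and the CoREST proteins. Of 8 tested genes of this group, Rcor2, a CoREST family gene, rose, and the median log2 difference was -0.11. Leaving out Scl +/+ array 3 gave 1 higher and 1 lower call, and array weights gave 1 higher. Rcor2 read 9.85, 9.65 and 9.56 on Scl fl/fl arrays 1, 2 and 3, against 9.03, 8.96 and 8.89 on Scl +/+ arrays 1, 2 and 3. The log2 difference was 0.73 (limma adjusted p = 0.0303), and the call held in 6 of 15 alternatives and, with 1 array left out, only without Scl +/+ array 3. Kdm1a, which encodes LSD1, had a log2 difference of -0.27 and Rcor3 one of 0.23, and neither passed (adjusted p = 0.318 and 0.425).

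Of 7 tested MYB target genes, Bcl2, the survival gene, rose by 0.67 on the log2 scale (limma adjusted p = 0.0303), and the median was -0.03. Bcl2 read 11.24, 11.30 and 11.27 on Scl fl/fl arrays 1, 2 and 3, against 10.51, 10.55 and 10.74 on Scl +/+ arrays 1, 2 and 3, and its call, too, held in 6 of 15 alternatives and, with 1 array left out, only without Scl +/+ array 3. With array weights 2 of the 7 were called higher and 1 lower. Ccne1, which encodes cyclin E1, had a log2 difference of 0.30 (adjusted p = 0.275). Of 8 tested relatives of the members none passed. Klf2, a KLF family gene, and Mybl2, the MYB relative of cycling cells, had log2 differences of -0.45 and 0.23 (adjusted p = 0.198 and 0.352). Gata5, Gata6 and Mybl1 were detected on no array.

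Markers of cells that could share the sort were read beside Gata1 and Gata2, both of which mast cells also express. All 8 tested megakaryocyte markers were detected on all 6 arrays, and none passed, with a summed signal of 34343 to 43780 in Scl fl/fl cells and 42569 to 45824 in Scl +/+ cells. Without Scl +/+ array 3, 2 of them were called higher and 1 lower, and with array weights 2 higher and 2 lower. Of 12 mast cell and basophil markers, 6 were tested and none passed, and Mcpt4, Mcpt8, Tpsab1, Ms4a2, Hdc and Mrgprb1 were detected on no array. The summed signal of the tested ones was 951 to 1296 in Scl fl/fl cells and 1011 to 1203 in Scl +/+ cells, and with array weights 1 was called higher and 1 lower. Of these, Cpa3, a mast cell protease gene, read 7.31, 8.17 and 7.83 on the Scl fl/fl arrays, against 6.92, 7.23 and 7.10 on the Scl +/+ arrays (adjusted p = 0.188), while Prss34, a basophil protease gene, was lower, with a log2 difference of -1.14 (adjusted p = 0.120). Cpa3 and Prss34 had the smallest p of the list. Mitf and Fcer1a, detected on all 6 arrays, had log2 differences of -0.17 and 0.51 (limma adjusted p = 0.429 and 0.543). The 2 tested eosinophil markers summed to 711 to 1611 in Scl fl/fl cells and 1439 to 4857 in Scl +/+ cells. Prg2, the eosinophil major basic protein gene, was highest on Scl +/+ array 3, at 12.19, and lowest on Scl fl/fl array 2, at 9.28, which were the 2 arrays with the highest Gata1.

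All 8 tested neutrophil and promyelocyte markers had lower means in Scl fl/fl cells and none passed as reported, but 3 of the 8 were called lower without Scl +/+ array 3 and 5 with array weights. The list had summed signals of 6164 to 7599 in Scl fl/fl cells and 6873 to 11922 in Scl +/+ cells. Prtn3, which encodes proteinase 3, and Lyz2, a lysozyme gene, had the smallest p of the list, with log2 differences of -0.61 (adjusted p = 0.122) and -0.40 (adjusted p = 0.203). Mpo, the brightest of the list, had a log2 difference of -0.30 (limma adjusted p = 0.663). Of 6 tested stem and early progenitor markers, Esam, an adhesion molecule gene, fell by 0.86 on the log2 scale (limma adjusted p = 0.0165), and the sum was 4290 to 5466 in Scl fl/fl cells and 6389 to 8070 in Scl +/+ cells. Esam and Meis1 gave most of this sum, and Procr, Hlf and Flt3 of the same list were detected on no array. The Esam call was lost without Scl fl/fl array 1 or Scl +/+ array 1 or 2, and in 3 other alternatives, while 3 of the 6 were called lower without Scl +/+ array 3 and also with array weights. Slamf1, a surface receptor gene of stem cells, and Meis1, a homeobox factor gene, had log2 differences of -1.40 (adjusted p = 0.0967) and -0.35 (adjusted p = 0.379). Of 4 tested lymphoid markers none passed (with array weights 1 was called higher), with sums of 6742 to 13166 in Scl fl/fl cells and 6705 to 6872 in Scl +/+ cells, and Cd3e, Cd3g, Cd79a and Il7r were detected on no array. Nkg7, a gene of cytotoxic lymphocytes that gave most of that sum, read 12.45, 13.55 and 12.87 on the Scl fl/fl arrays, against 12.46, 12.49 and 12.44 on the Scl +/+ arrays (adjusted p = 0.352). Whether the signal of such markers, as of Esam, Meis1 or Nkg7, came from other cells or from the sorted progenitors themselves was not tested. The part of these other cell types in the Gata2 and Gata1 values was not tested.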

How the data were processed

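Per the labels' protocols, biotin-labelled RNA amplified with an Illumina kit was hybridised, 1 array per sample. The authors deposited a table of log2 signals with no scaling between arrays, with a detection score for each probe (a fraction of 1, deposited under a p-value header although bright probes have 1), and a table of normalized log2 values. No value of the second was more than 0.0865 from quantile normalization of the first. Per the submitters' processing notes limma was used. Its version and the scanner software were not known here. Under quantile normalization a common shift of most genes would go unseen.

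Levels are the authors' deposited normalized log2 values, because the rule that chose the members names that table. Without background correction the differences of dim probes are compressed. Probes with 1 minus the score under 0.05 on at least 3 arrays were kept (16122) and compared with limma 3.58.1 in R 4.3.3 (lmFit and eBayes, two-sided, Benjamini-Hochberg over all kept probes). This fit was checked on simulated data with noise independent between probes and arrays. The simulated data held no differences between whole arrays, so the check does not cover those seen here. Every adjusted p comes from limma, in this fit or in the alternative named beside it. Symbols came from the platform annotation, which gave 1 gene for 29976 probes, several for 10 and none for 16646. For lists, the brightest kept probe stood for each gene. Named were all members, Tal1, every called list gene, the 2 next by p from each list (for markers the brightest 3) as far as a result turned on them, and the 3 genes nearest each member's pattern. Prtn3 and Cpa3, not among the brightest 3 of their marker lists, were named too, as were Gp1bb, Itga2b, Hba-a1, Chd4 and Rbbp7 outside this rule.

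Alternatives were neqc (offset 16), median scaling, no filter, a stricter filter (detection p under 0.01 on all 6 arrays), 1 probe a gene, a trend and robust prior, array weights, a block for the replicate number, the Xist level as a covariate, and leaving out each array. The members and lists were chosen with earlier results of these data known. No batch or scan date was known here. The number of arrays limits the precision.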

Additional observations from a re-analysis of the deposited data

How the results depend on the processing

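The number of probes past the threshold, 99 as reported, was 73 with neqc, 96 with no filter, 69 with the stricter filter, and 124 both with 1 probe a gene and with the trend and robust prior. It was 2 with median scaling, 3 with the replicate number as a block, 1 with the Xist level as a covariate and 1694 with array weights, and ran from 11 to 1618 with 1 array left out, the highest without Scl +/+ array 3; the cause was not tested. The Gata2 difference kept its direction in all 15 alternatives, but it did not pass with neqc (0.66), median scaling (0.71), the replicate block (0.65) and the Xist covariate (0.59), nor with any 1 array other than Scl +/+ array 3 left out (0.59 to 0.69). Gata1, Gfi1b and Klf1 stayed positive and passed in none of the 15. For every member, the 2 filter changes, 1 probe a gene, the trend and robust prior and the replicate block leave the estimate as it is. Only the other alternatives can bear on its size and direction. Of these, leaving out an array or weighting arrays could not turn the sign for Gata2 and Gfi1b, whose groups did not overlap. Myb changed sign with array weights (-0.036) and without Scl fl/fl array 1 (-0.036), Scl fl/fl array 3 (-0.012) or Scl +/+ array 3 (-0.14), and its range with 1 array left out was -0.14 to 0.19. The balance of Gata1 against Gata2 ran from -0.53 to -0.21 over its 9 alternatives. Taken within same-numbered arrays (the replicate block) it was -0.41, with an exact sign-flip p of 0.25, the smallest that 3 pairs can give. Deviations from the group means of same-numbered arrays correlated at 0.11, -0.33 and -0.22, so the numbers were not taken to pair samples. The Gata2 adjusted p with the block was 0.134. No other pair of Gata1 and Gata2 probes could be compared, since each gene has 1 probe. For the 7 lists that held a called gene, the count stayed within 1.5 times the reported one in 38 of 105 list and alternative pairs and moved further in 67. The other 8 lists held none, and 10 of their 120 pairs gave a call. With 3 arrays a group, a signal near background, as for the 2 undetected Myb probes, gives no difference.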
